A study of Homo sapiens with 3 samples.

Results

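The epithelial keratins KRT8, KRT18 and KRT19, the adhesion genes CDH1, EPCAM, CLDN3, CLDN4 and CLDN7, and the mesenchymal genes VIM and CDH2 were followed through 3 knockdown arrays of LNCaP, a human prostate cancer line that responds to androgen. The members were the probes whose platform symbol is 1 of these 10 genes, which gave 15 of 34183 probes and 10 of 20399 named genes. Of the 10 genes, 9 passed a signal filter that kept 10200 genes as measured, and CDH2 did not.

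Cells grown in IMEM with 5% FBS were transfected with siRNA against a SHOT-RNA, a fragment of a tRNA whose production depends on sex hormones, and harvested after 72 h. The siRNAs were aimed at the 5' piece of tRNA LysCUU (5'-Lys KD) or of tRNA AspGUC (5'-Asp KD) and given at 20 nM, or at the 3' piece of AspGUC (3'-Asp KD) and given at 10 nM. The control was an siRNA to Renilla luciferase (R-Luc KD), and each knockdown was hybridised against it on 1 array in 2 colours. With n = 1 per knockdown no test was possible, and "higher" and "lower" describe these arrays only. Where values come in triplets they stand for 5'-Lys, then 5'-Asp, then 3'-Asp KD.

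KRT8 and KRT18 form the paired filaments of simple and luminal epithelium, where each type II keratin needs a type I partner, and KRT19 is a further type I keratin of such tissue. CDH1 encodes E-cadherin, which joins neighbouring cells at adherens junctions. EPCAM encodes a homophilic adhesion protein that binds claudin-7, and the claudins are the strands of tight junctions. Vimentin, the type III filament of mesenchymal cells, and N-cadherin, the product of CDH2, are commonly read together with E-cadherin when epithelial and mesenchymal states are compared.

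In these arrays CLDN4 and KRT8 had the highest and KRT19 the lowest ratios on the 5'-Lys array, at 1.66-fold and 1.57-fold higher and 1.47-fold lower. KRT18 and EPCAM stayed between 0.983-fold and 1.14-fold, first over second column, on all arrays. VIM was 1.40-fold lower on the 5'-Lys array and, by the labels' dyes, 1.64-fold higher on the 5'-Asp array. By the names of the deposited columns it was 1.64-fold lower there too, since the labels and those names disagree on the direction of both Asp arrays. CDH2 was dim throughout, at 25.4 units or less.

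Promoter letters are shown for CLDN3, CLDN4 and CLDN7, whose first column was the brighter one on each array, and for VIM, whose brighter column differed between arrays. KRT8, whose first column was also the brighter one on each array, and CDH2 had windows too, which are not printed. RefSeq windows were matched for 6 of the 10 members, and the 250 bases before the annotated start are printed 5' to 3' on the gene's strand, build GRCh38.p14. Capitals mark the GC box GGGCGG, to which Sp1-type factors bind, the E-box CACCTG, to which the repressors of the SNAI and ZEB families bind, and TATAA, each on either strand. CLDN3 lies at chr7:73770271-73770520 (minus strand), CLDN4 at chr7:73830746-73830995 (plus strand) and VIM at chr10:17227991-17228240 (plus strand). CLDN7 has an outer start at chr17:7263214-7263463 and an inner start at chr17:7262479-7262728 (both minus strand).
CLDN3: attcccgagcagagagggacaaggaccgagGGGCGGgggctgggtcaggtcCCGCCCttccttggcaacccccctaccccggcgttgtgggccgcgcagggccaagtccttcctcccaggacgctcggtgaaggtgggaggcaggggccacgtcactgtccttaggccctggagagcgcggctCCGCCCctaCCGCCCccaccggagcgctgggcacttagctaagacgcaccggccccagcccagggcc
CLDN4: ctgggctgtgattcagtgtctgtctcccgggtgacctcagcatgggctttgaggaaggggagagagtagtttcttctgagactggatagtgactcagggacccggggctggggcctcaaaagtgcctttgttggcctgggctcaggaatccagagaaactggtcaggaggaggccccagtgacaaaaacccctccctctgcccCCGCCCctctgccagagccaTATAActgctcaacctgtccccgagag
CLDN7 (outer start): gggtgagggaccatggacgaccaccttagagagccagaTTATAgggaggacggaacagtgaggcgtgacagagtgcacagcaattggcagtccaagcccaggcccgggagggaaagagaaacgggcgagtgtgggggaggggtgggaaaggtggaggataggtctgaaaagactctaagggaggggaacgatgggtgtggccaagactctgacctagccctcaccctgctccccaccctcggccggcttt
CLDN7 (inner start): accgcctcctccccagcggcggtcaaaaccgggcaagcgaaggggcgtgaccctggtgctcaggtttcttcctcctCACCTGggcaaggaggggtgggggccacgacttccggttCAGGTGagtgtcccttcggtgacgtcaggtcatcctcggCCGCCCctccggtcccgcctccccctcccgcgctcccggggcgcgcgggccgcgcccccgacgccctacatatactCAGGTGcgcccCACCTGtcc
VIM: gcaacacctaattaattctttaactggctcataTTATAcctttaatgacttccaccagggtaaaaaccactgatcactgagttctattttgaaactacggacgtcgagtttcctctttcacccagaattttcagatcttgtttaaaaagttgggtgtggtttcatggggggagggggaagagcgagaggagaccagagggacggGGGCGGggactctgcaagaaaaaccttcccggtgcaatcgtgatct

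Of all 35116 promoter windows, 42.6% held the GC box, 17.5% the E-box and 18.9% TATAA in these 250 bases. CLDN3 had 4 GC boxes and no other match. CLDN4 had 1 GC box and 1 TATAA, whose first bases lay 47 and 27 bases before the start. The outer CLDN7 window held 1 TATAA, on the other strand, whereas the inner one held 4 E-boxes, which begin 174, 135, 20 and 9 bases before the start, and 1 GC box. VIM had 1 GC box 46 bases before its start and 1 TATAA on the other strand. No 2 of the printed matches overlapped. Of the windows not printed, that of KRT8, at an inner start, held 0 GC boxes, 0 E-boxes and 0 TATAA. The outer CDH2 window held 1 GC box, and the inner one held 2 TATAA matches that overlapped. These matches are letters in a window and were not tested as sites.

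The ratio given throughout is log2 of the first over the second signal column, centred on each array's median over measured genes. The sample labels give the knockdown Cy3 and the control Cy5, and with the first column taken as Cy3 the ratio is knockdown over control. The names of the deposited columns call the first one the knockdown for 5'-Lys but the control for both Asp arrays, so the direction is settled for 5'-Lys KD and not for the Asp knockdowns. Read by the column names, every sign below turns for both Asp knockdowns, and the second columns hold 1 control and 2 knockdowns in place of 3 controls. First over second ratios of the 10 E1A spike-in probes were alike on the 3 arrays (r over these probes was at least 0.999 between any pair of arrays, a description only). The first column was therefore taken to hold the same dye on each, which the file headers do not state. By the labels' dyes all arrays had 1 dye orientation, while by the column names both Asp arrays had the opposite one to 5'-Lys. No knockdown was hybridised in both orientations, so a gene-specific dye effect and a knockdown effect cannot be told apart within an array. The sources used here do not say whether 1 control RNA was used throughout.

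Median signals of the first columns were 94.0, 70.7 and 79.7 units, close to those of the second columns. The only measures of spread were the SD of log2 ratios between probes of a gene and the SD of a gene's second-column level over the 3 arrays, whose median over measured genes was 0.12 in log2 units and whose 95th percentile was 0.34. The latter is a spread of controls only by the labels' dyes, since by the column names it mixes a control with both Asp knockdowns. Of 9 luminal prostate markers given, all were measured, with a median level at percentile 91.6 of named genes, while 3 of 7 basal, 1 of 7 fibroblast, 0 of 5 endothelial and 0 of 4 blood markers were measured. Of these 9 luminal markers 1, 0 and 0 were at least 1.5-fold higher, against 4.49%, 3.54% and 2.3% of measured genes. Lower were 3, 2 and 2 of the 9 markers, against 6.95%, 4.35% and 2.56% of measured genes. The members KRT8 and KRT18 are among the 9, and KRT8 was the 1 that was higher. Summed signals, which include these keratins, were 224924 to 302855 units per column for the luminal markers. They were 1066 to 1357 for the basal, 116 to 254 for the fibroblast, 565 to 1004 for the endothelial and 148 to 211 for the blood markers. The part of the markers other than KRT8 and KRT18 in the ratios of the keratins was not tested. In total RNA of a culture, fewer cells with a transcript and less of it per cell cannot be told apart.

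KRT8 (chromosome 12, 52897191 to 52949860) was read by 3 probes. The brightest had 6084 and 4004 units in the first and second column of the 5'-Lys array, 4673 and 3225 on the 5'-Asp array, and 4595 and 3406 on the 3'-Asp array. All 3 first columns of this probe lay above all 3 second columns. The probe of the noncoding KRT8 transcript had 2871 and 1751, 1816 and 1582, and 2146 and 1722 units in the same order, and the dimmest 151 and 94.0, 90.8 and 84.6, and 99.0 and 82.0. The mean log2 ratio over the probes was 0.65, 0.26 and 0.34, with an SD between probes of 0.06, 0.23 and 0.08. The probes gave nearly the same ratio on the 5'-Lys array, while on the 5'-Asp array the brightest probe had 0.52 and the others 0.18 and 0.08. The second-column level of KRT8 had an SD of 0.02 over the arrays, and its first-column level one of 0.19.

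KRT18 (chromosome 12, 52948855 to 52952906), the type I partner of KRT8 and its neighbour on that chromosome, had 2 bright probes. The brighter had 43510 and 42879 units on the 5'-Lys array, 42315 and 42480 on the 5'-Asp array, and 41929 and 37204 on the 3'-Asp array. The other had 12089 and 11745, 11294 and 11168, and 11298 and 9847. Both probes had their lowest value in the second column of the 3'-Asp array. Its log2 ratios were 0.02, -0.01 and 0.18, with an SD between probes of 0.02 or less on each array. On the 5'-Lys array KRT8 thus had 0.65 where its partner had 0.02. Processed pseudogenes of both keratins exist, and whether the probes also bind their transcripts was not tested.

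KRT19 (chromosome 17, 41523617 to 41528308), which is smaller than other keratins, went the other way. Its single probe had 394 and 572 units on the 5'-Lys array, 558 and 852 on the 5'-Asp array, and 387 and 667 on the 3'-Asp array. All 3 first columns lay below all 3 second columns in units, and the 5'-Asp array was the highest in both colours. Set against each column's median over measured genes, the first-column level of -0.73 on the 5'-Asp array lay above the second-column level of -0.91 on the 5'-Lys array, so on that scale the columns overlapped. The log2 ratios were -0.56, -0.63 and -0.79, at the 7.80, 3.56 and 0.804 percentiles of measured genes. The SD of its second-column level over the arrays was 0.41, so the ratios were larger than it by less than a factor of 2. Against the mean second column of all arrays they were -0.97, -0.20 and -0.80, so the 5'-Lys and 5'-Asp values each moved by more than 1.5 times, in opposite directions.

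**Figure D1:**
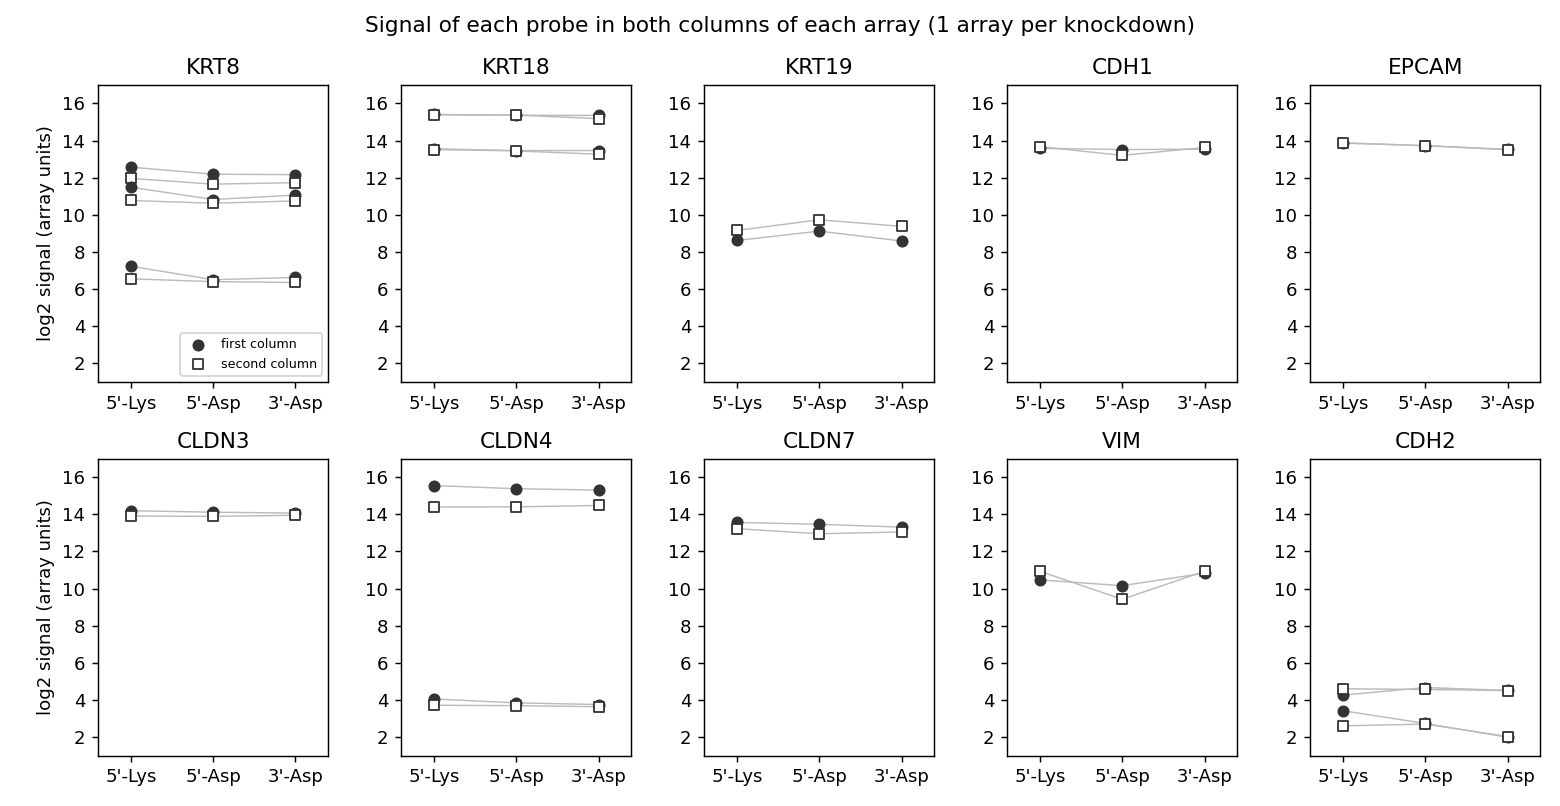
Log2 signal of every probe of the 10 genes (y axis, array units on a log2 scale) on the 3 arrays (x axis), with filled circles for the first and open squares for the second column, and lines joining the same column of 1 probe. CLDN4's bright probe and KRT8 sit higher in the first column on each array, KRT19 sits lower, VIM crosses over, and both CDH2 probes lie at 25.4 units or less.

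CDH1 (chromosome 16, 68737292 to 68835537) had 12283 and 13099 units in the first and second column of the 5'-Lys array, 11737 and 9439 on the 5'-Asp array, and 11904 and 12681 on the 3'-Asp array. The low value was the second column of the 5'-Asp array, and the other 5 lay within 11737 to 13099. CDH1 thus had log2 ratios of -0.11, 0.30 and -0.09, and the second-column level had an SD of 0.18. Against the mean second column they were -0.02, 0.03 and 0.09.

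EPCAM (chromosome 2, 47369311 to 47387020) had 14951 and 15042 units on the 5'-Lys array, 13628 and 13535 on the 5'-Asp array, and 11814 and 11648 on the 3'-Asp array. Its columns differed between arrays more than within any of them. Log2 ratios of -0.02, -0.01 and 0.02 were all smaller than the SD of 0.15 of its second-column level.

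Among the claudins, CLDN4 (chromosome 7, 73830996 to 73832690) had the highest ratios. Its bright probe had 48047 and 21529 units on the 5'-Lys array, 42738 and 21688 on the 5'-Asp array, and 40565 and 22845 on the 3'-Asp array. The second columns lay close together and all 3 first columns were far above them. This probe alone gave log2 ratios of 1.14, 0.96 and 0.83, or 2.21-fold, 1.95-fold and 1.77-fold. A second probe, placed on an Ensembl transcript, had 12.4 to 16.6 units and ratios of 0.32, 0.13 and 0.11, which is dim and close to the range of CDH2. The mean of both probes, used for the gene, was 0.73, 0.55 and 0.47, with an SD between probes of 0.58, 0.59 and 0.50.

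CLDN3 (chromosome 7, 73768997 to 73770270), which lies beside CLDN4 on the other strand, had 18748 and 15410 units on the 5'-Lys array, 17787 and 15206 on the 5'-Asp array, and 17139 and 15836 on the 3'-Asp array. The first column was the higher on each array, without overlap, but by less than for CLDN4. Its ratios were 0.27, 0.21 and 0.11 in log2 units, beside an SD of 0.13 for the second-column level.

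CLDN7 (chromosome 17, 7259903 to 7263213) had 12141 and 9605 units on the 5'-Lys array, 11311 and 7934 on the 5'-Asp array, and 10178 and 8500 on the 3'-Asp array. Again all 3 first columns lay above the second columns, whose level had an SD of only 0.02 over the arrays. The log2 ratios were 0.32, 0.49 and 0.26. CLDN3 and CLDN4 are close relatives, and their probes may bind both transcripts.

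VIM (chromosome 10, 17228241 to 17237593) had 1415 and 1957 units on the 5'-Lys array, 1143 and 687 on the 5'-Asp array, and 1817 and 1954 on the 3'-Asp array. The 5'-Asp array had the lowest value in each colour, and its second column was the lowest of all 6. VIM had log2 ratios of -0.48, 0.72 and -0.11. The second-column level had an SD of 0.79 over the arrays, which is larger than each of these ratios. Against the mean second column of all arrays the ratios were -0.11, -0.20 and 0.43, so the 5'-Asp and 3'-Asp values changed sign. By the labels' dyes its direction on the Asp arrays thus depended on which second column served as the control. By the column names the low value of 687 units belongs to the 5'-Asp knockdown, and neither this SD nor the mean second column describes a control.

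CDH2 (chromosome 18, 27932879 to 28177130) had 3.98 to 10.7 units with one probe and 19.2 to 25.4 units with the other, beside 2.2 to 4.6 units for the negative control probe. Its levels lay at percentiles 26.2 to 30.4 of named genes. The probes disagreed on the 5'-Lys array, with log2 ratios of 0.80 and -0.36, and no direction was read for it.

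**Figure D2:**
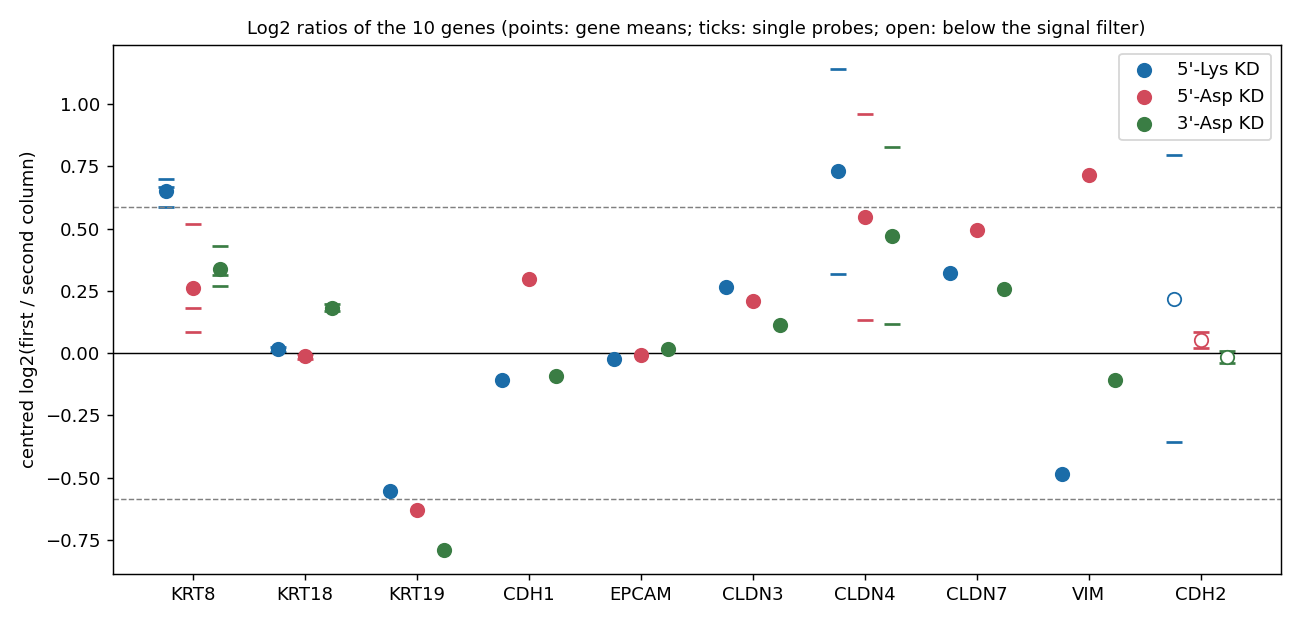
Centred log2 ratio of first over second column (y axis) for each gene (x axis) and array (colour), with points for the gene mean, ticks for single probes where there is more than 1, open points for CDH2, which is below the signal filter, and dashed lines at 1.5-fold. CLDN4, CLDN7, CLDN3 and KRT8 lie above 0 and KRT19 below 0 on every array, by the labels' dyes, and by the column names the signs of both Asp arrays turn.

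At a 1.5-fold threshold 2 of the 9 measured members were higher on the 5'-Lys array, CLDN4 and KRT8, against 4.49% of all measured genes, and 0 were lower, against 6.95%. On the 5'-Asp array 1 member, VIM, was higher, against 3.54% of measured genes, and 1, KRT19, was lower, against 4.35%. On the 3'-Asp array 0 were higher, against 2.3%, and 1, KRT19, was lower, against 2.56%. In either direction 11.4%, 7.89% and 4.86% of measured genes were past the threshold. The median log2 ratio of the members was 0.02, 0.26 and 0.11, where that of all measured genes is 0 by the centring. With the dim CLDN4 probe left out, CLDN4 was also past the threshold on both Asp arrays, which made the counts higher 2 and 1 there.

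Levels relative to the column's median did not overlap between the 3 first and the 3 second columns for 4 of the 9 members, KRT8, CLDN3, CLDN4 and CLDN7, each with the first columns above. This was so for 15.6% of all measured genes, and 16.7% had the first columns below, so non-overlap in either direction was met by 32.3% of measured genes. By the labels' dyes the first columns are 3 different knockdowns, and the arrays may share their control. By the column names the first columns are 1 knockdown and 2 controls, so this count then compares no knockdown with its control.

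The 5'-Lys and 5'-Asp knockdowns were made at the same dose, so their ratios can be set side by side. With the labels' dyes, a dye effect that a gene has on both arrays drops out of the difference. By the labels' dyes VIM differed by -1.20 (5'-Lys minus 5'-Asp, 2.30-fold), at percentile 0.461 of measured genes, and was the 1 of 9 members at least 1.5-fold apart, against 8.25% of measured genes (5.09% with the 5'-Lys ratio lower and 3.17% with it higher). CDH1 (-0.41) and KRT8 (0.39) came next, and the other 6 members lay within -0.17 to 0.18. For CLDN4 the difference was 0.18 and for KRT19 0.07. Relative to the column median, VIM had first-column levels of 0.38 on the 5'-Lys and 0.30 on the 5'-Asp array. Its second-column levels there were 0.87 and -0.40. Most of the VIM difference thus lay between the second columns, which are the controls by the labels' dyes. By the column names a dye effect no longer drops out, and 4 of 9 members were at least 1.5-fold apart, against 31.8% of measured genes. These were CLDN4 (1.28), KRT19 (-1.18), KRT8 (0.91) and CLDN7 (0.81), whereas VIM, with -0.48 and -0.72, differed by 0.23. The range of log2 ratios over the 3 arrays was 1.20 for VIM, 0.23 for KRT19 and 0.26 for CLDN4 by the labels' dyes, and 0.82, 1.34 and 1.28 by the column names.

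**Figure D3:**
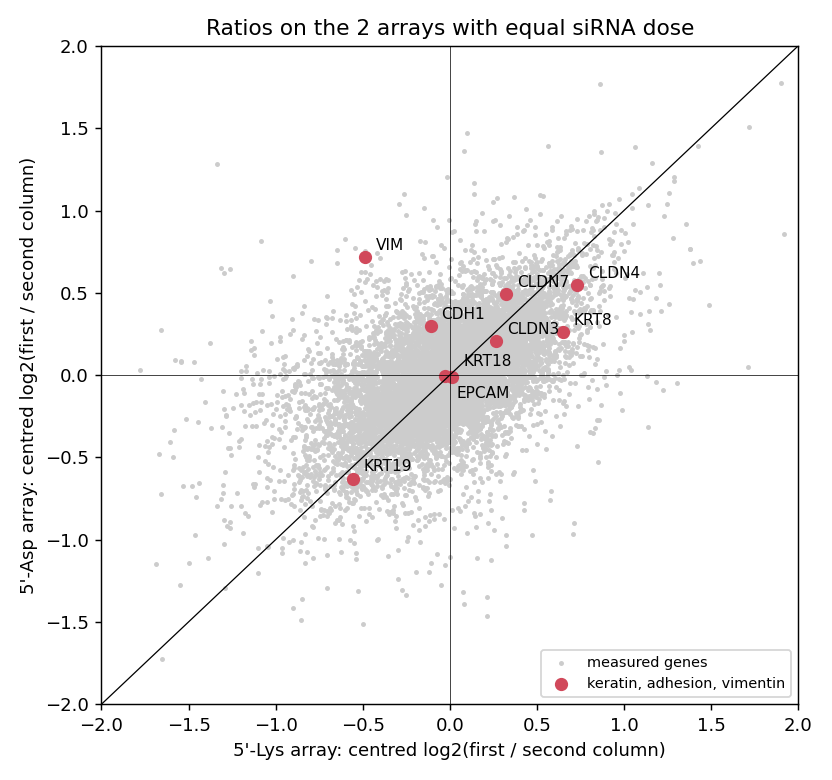
Centred log2 ratios of measured genes on the 5'-Lys array (x axis) and the 5'-Asp array (y axis), both at 20 nM, in grey, with the 9 measured members in red and the line of equal ratios, and with 10 measured genes outside the plotted range. By the labels' dyes VIM lies far above the line, KRT19, CLDN3, CLDN4 and CLDN7 lie near it, and EPCAM and KRT18 lie at 0, while by the column names the y axis is turned over.

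Of 16 other keratins 4 were measured, and none of these 4 was 1.5-fold away from 0 on any array, with KRT15, a basal keratin, the farthest at 0.32 on the 3'-Asp array. KRT7, found in many simple epithelia, had log2 ratios of 0.27, 0.31 and 0.17. The basal keratins KRT5 and KRT14 were not measured. KRT80, a type II keratin, missed the filter by its mean level, at percentile 44.6 of named genes, but reached percentile 64.7 in its highest column. Its probe had 493 and 32.03 units in the first and second column of the 5'-Lys array, 82.7 and 20.5 on the 5'-Asp array, and 91.4 and 44.7 on the 3'-Asp array. The first column was the higher on each array, without overlap, and the log2 ratios were 3.93, 1.99 and 1.03. KRT80 was picked out after its values were seen. It is 1 of the 16 keratins and of the named genes counted without a filter, but is in none of the counts over measured genes.

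Among 7 other measured intermediate filament and lamin genes, 1, 2 and 3 were lower and 0 higher. Of all measured genes, 6.95%, 4.35% and 2.56% were lower and 4.49%, 3.54% and 2.3% higher. These shares apply to the list counts here and below, and no list was tested against them. SYNM, a filament linker, had -0.66 on the 5'-Lys array. NEFL, the light neurofilament, had -0.72 and -1.67 on the 5'-Asp and 3'-Asp arrays, and PRPH, the neuronal peripherin, had -0.59 on each of them but 0.37 on the 5'-Lys array. LMNB1, a nuclear lamin, had -0.84 on the 3'-Asp array. The list medians were 0.09, 0.04 and -0.01.

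Of 10 measured desmosome and plakin genes 3 were higher on the 5'-Lys array and 2 on the 5'-Asp array, with none lower on either and none past the threshold on the 3'-Asp array. Plakoglobin (JUP), which serves both desmosomes and adherens junctions, had 0.72, 0.67 and 0.25. Epiplakin (EPPK1), which binds keratin filaments, had 0.79, 0.79 and 0.29, and the desmosomal cadherin DSC2 0.95, 0.35 and 0.10. DSP, the desmoplakin that anchors keratins, had -0.07, 0.00 and -0.07. List medians were 0.11, 0.28 and 0.15.

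Of 9 measured adherens junction genes only PTPRF, a receptor phosphatase, reached the threshold, at -0.74 on the 3'-Asp array, where its 2 probes had an SD of 0.45. The catenin genes CTNNB1 (0.26, 0.20 and 0.33) and CTNND1 (0.30, 0.37 and 0.38), whose products bind the tail of E-cadherin, lay above 0 and below the threshold. The list medians were 0.12, 0.20 and 0.04.

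Of 14 other measured tight junction genes 1, 3 and 1 were higher and 1, 1 and 0 lower, with list medians of -0.03, 0.22 and -0.03. Cingulin (CGN), a cytoplasmic plaque protein, was past the threshold on every array, at 0.92, 0.79 and 0.68. TJP1, which encodes the scaffold ZO-1, had -0.97, -0.35 and -0.56. On the 5'-Asp array occludin (OCLN) had 0.66 and CLDN12 0.61, while the adenovirus receptor CXADR had -0.86.

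The genes around EPCAM included SPINT1, an inhibitor of membrane serine proteases, which had 0.62, 0.78 and 0.62 and passed the threshold on every array. SPINT2, a further inhibitor, had 0.33, 0.35 and 0.32, and ST14, the protease matriptase, 0.02, 0.03 and -0.07. ADAM17, a sheddase of EPCAM, had 0.67 on the 5'-Lys array. Of 8 measured genes of this list 2, 1 and 1 were higher and 0 lower, with medians of 0.17, 0.22 and 0.19.

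Among 11 measured epithelial transcription and splicing factors, 1, 1 and 0 were higher and 0, 1 and 1 lower. OVOL1 had 0.73 on the 5'-Lys array and ELF3 0.71 on the 5'-Asp array. KLF5 had -1.28 and -1.07 on the 5'-Asp and 3'-Asp arrays and -0.05 on the 5'-Lys array, and GRHL2, an activator of CDH1 and claudin genes, had 0.13, 0.11 and 0.16. The list medians were 0.13, 0.11 and 0.12.

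Of 14 transcription factors known for epithelial to mesenchymal transition 4 were measured, and ZEB1, ZEB2, SNAI2, TWIST1 and TWIST2 were not. TCF4 had -0.62 on the 5'-Lys array, 0.08 on the 5'-Asp array and 0.26 on the 3'-Asp array, and SNAI1 lay within -0.14 to 0.30. Of 25 mesenchymal genes 6 were measured. COL5A2, a collagen gene, differed in sign, with -1.26, 0.65 and 0.64, and its second-column level had an SD of 0.75, as for VIM. The integrin genes ITGB1, ITGAV and ITGA5 had -0.71 on the 5'-Lys array, -0.84 on the 5'-Asp array and 0.59 on the 3'-Asp array, in that order. FN1, which encodes fibronectin, was not measured. Counts past the threshold in the mesenchymal list were 0, 1 and 2 higher and 2, 1 and 0 lower.

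**Figure D4:**
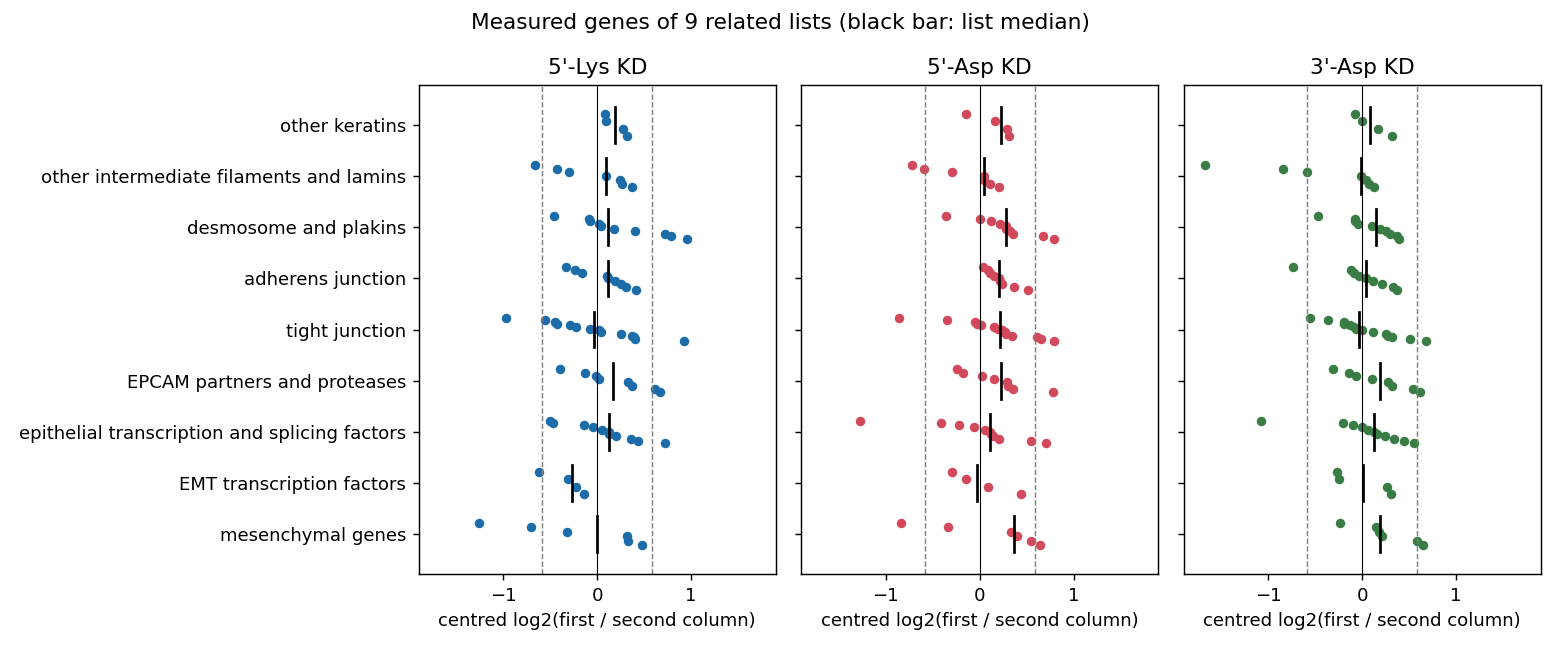
Centred log2 ratio of first over second column (x axis) for each measured gene of the 9 related lists (rows) on each array (panels), with black bars for list medians and dashed lines at 1.5-fold. Most genes lie within the dashed lines, and the leftmost point is NEFL at -1.67 on the 3'-Asp array.

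The measured genes most alike to the 4 members past the threshold, by Euclidean distance of their 3 log2 ratios among 9652 candidates, were as follows. KRT8 was nearest to TIMM22 (distance 0.05), PRR3 (0.07) and a probe under the symbol FDX1L (0.07). KRT19 was nearest to PTGFR (0.06), UBE2E3 (0.10) and MAF (0.11). CLDN4 was nearest to KRT8P12 (0.03), a pseudogene of KRT8, and to DNM2 (0.05) and NIPSNAP1 (0.06). This likeness rests on the mean of the bright and the dim CLDN4 probe. The bright probe alone had 1.14, 0.96 and 0.83, farther from the 0.75, 0.54 and 0.50 of KRT8P12. VIM was nearest to SERPINI1 (0.10), BCORL1 (0.165) and VPS35L (0.21).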

How the data were processed

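Total RNA of LNCaP cells was extracted with TRIzol and hybridised in 2 colours, with arrays and data acquisition by a service company, per the labels. The authors deposited 1 intensity table per array with 2 signal columns, called raw in the file headers, for 34183 probes, of which 56 are controls. The extraction software, background handling and genome build are not stated in those sources. The deposited series values are a score, a signed fold. They equalled the first over the second column times 1 constant per array (log2 of -0.021, -0.017 and -0.013), and their medians were 1.06, 1.07 and 1.05.

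The platform annotation gave 28048 probes 1 symbol, 0 several and 6079 none. Through the unversioned accession 25511 symbols were set to RefSeq names, 2182 were kept as current and 355 as old. Probes of 1 gene were averaged as log2 signals. Genes with a mean log2 signal at or above the 50th percentile (7.03) counted as measured, and ratios were centred on their median. Members and lists were chosen with earlier results of these data known. All 10 members were named, and of each list up to 4 genes per array past 1.5-fold, or else the farthest. DSP, KRT7, KRT80, CTNNB1, CTNND1, SPINT2, ST14, GRHL2 and SNAI1 were named outside this rule, after their values were seen, as were the genes named as not measured and the values of named genes on arrays where they were within the threshold. Some listed genes were not analysed here. No p-value was computed.

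Alternatives were limma (3.58.1, R 4.3.3) loess and normexp (offset 50), the deposited folds, the mean second column after Aquantile scaling as control, no filter or the 75th percentile, the brightest probe, a direction read from the column names, all named genes for centring and a 2-fold threshold. Leaving out the dim CLDN4 probe, and the column-name direction for the difference between arrays, were added after seeing the data. Python 3.11.15, numpy 2.4.6, pandas 2.3.3 and matplotlib 3.10.9 were used, and the steps were tested on simulated data. The number of arrays limits the precision.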

Additional observations from a re-analysis of the deposited data

Results flagged for a closer look

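By the labels' dyes VIM stood on opposite sides of 0 on the arrays given the same dose, with a 5'-Lys ratio minus 5'-Asp ratio of -1.20 on the log2 scale, from -0.48 and 0.72. The difference was not tested, since each knockdown had 1 array. Its single probe had 1957 and 687 units in the second columns of these arrays, and 1415 and 1143 in the first. By the column names VIM lay below 0 on both arrays, at -0.48 and -0.72, and differed by 0.23, while KRT19 (-0.56 and 0.63) and CLDN4 (0.73 and -0.55) stood on opposite sides of 0, with untested differences of -1.18 and 1.28.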

How the results depend on the processing

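No paired analysis was possible because each knockdown had 1 array and no result came from a test. Members at least 1.5-fold higher on the 5'-Lys array numbered 1 instead of 2 with normexp, the mean second column as control, no filter, the brightest probe and centring on all named genes, and 0 with the 75th percentile filter or the 2-fold threshold. With that filter KRT8 and CLDN4, whose levels are means that include a dim probe, left the set, while their ratios were 0.64 and 0.72. The bright CLDN4 probe alone was 2.21-fold higher on the 5'-Lys array. Lower on that array was 1 member instead of 0 with the mean second column, no filter and centring on all named genes. On the 5'-Asp array 2 instead of 1 were higher with loess, the brightest probe or without the dim CLDN4 probe, and 0 at 2-fold, while 0 instead of 1 were lower with the mean second column, the 75th percentile filter or at 2-fold. On the 3'-Asp array 1 instead of 0 was higher with the brightest probe, without the dim CLDN4 probe or by the column names, and 0 instead of 1 were lower by the column names, with the 75th percentile filter or at 2-fold. By the column names KRT19 had 0.63 (5'-Asp KD) and 0.79 (3'-Asp KD) and VIM -0.72 (5'-Asp KD), and with the mean second column VIM had -0.20 (5'-Asp KD), where the control level differs by construction. The mean second column is a mean of controls only by the labels' dyes. For the 5'-Lys ratio minus the 5'-Asp ratio, the column names, a setting added after seeing the data, gave 4 instead of 1 members and 3242 instead of 842 measured genes at least 1.5-fold apart, and 0.23 instead of -1.20 for VIM. The deposited folds changed none of these counts. Beyond what each setting changes by construction, the cause was not tested.

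Over measured genes, counts higher and lower were 458 and 709 for 5'-Lys, 361 and 444 for 5'-Asp, 235 and 261 for 3'-Asp. Centred on all named genes they were 301 and 1002, 230 and 627, and 143 and 409. Without a filter they were 2943 and 2402, 3908 and 1879, and 3695 and 1586, counted over all 20399 named genes. At the 75th percentile they were 190 and 339, 153 and 177, and 86 and 115, and at 2-fold 62 and 138, 37 and 54, and 23 and 27. Normexp gave 371 and 558, 251 and 305, and 168 and 170, each below the main count. Apart from the column names, the mean second column turned the most signs, 7 of 27 member ratios, while loess, no filter and centring on all named genes turned 2 each, all under 0.25 in size. Near the background, as for CDH2 and the second CLDN4 probe, ratios carry little weight.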

Other observations

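The array held probes under the symbols of 3 keratin pseudogenes. KRT18P55 had log2 ratios of 0.05, 0.00 and 0.18 (5'-Lys, then 5'-Asp, then 3'-Asp), where KRT18 had 0.02, -0.01 and 0.18, and its probe read 9527 to 11273 units. KRT8P12 had 0.75, 0.54 and 0.50, at 924 to 2046 units, beside 0.65, 0.26 and 0.34 for KRT8 and 0.59, 0.52 and 0.43 for the brightest KRT8 probe. KRT8P41, at 6.37 to 22.4 units and below the signal filter, had -1.07, -1.16 and -0.16. These probes were looked at after the values of KRT8P12 were seen, and whether they bind the parent transcripts was not tested.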
